A study of Mus musculus with 4 samples.

Results

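The genes described here copy DNA methylation onto new DNA and pack that DNA into chromatin, and they were followed in total liver RNA of PEPCK-TAg transgenic and non-transgenic wild-type (WT) mice. The members were fixed by name, as every probe set whose only gene symbol in the platform annotation was Dnmt1, Uhrf1, Hells, Trim28, Ezh2, Chaf1a, Chaf1b, Nasp, Slbp or Hmgb2. This gave 11 probe sets of 10 genes, among 12422 probe sets that were not controls. PEPCK-TAg mice express large T and small t, the oncoproteins of SV40, from the promoter of Pck1, a gluconeogenesis gene active in hepatocytes and in some other tissues. All mice were male B6SJL hybrids aged 58 to 60 days that had eaten 10% protein and 70% carbohydrate for 4 weeks from weaning, and the question was what long exposure to low amounts of these oncoproteins does to hepatic expression. Each group had 2 Affymetrix MG_U74Av2 arrays, and the labels do not say that they came from separate animals, so p-values cover only array-to-array spread, part or all of which may be technical.

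When a DNA strand is copied, the new strand starts without methyl groups and without its full set of histones. Uhrf1 recognises the half-methylated DNA and brings in Dnmt1, the maintenance methyltransferase, while the chromatin assembly factor formed by Chaf1a and Chaf1b places new histones behind the replication fork. Genes of this machinery are known as targets of E2F transcription factors, which the retinoblastoma proteins hold back, and large T binds the retinoblastoma proteins. Adult liver contains few dividing cells.

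The start windows of 6 members are shown, those of 5 because they hold an E2F core. That of Hmgb2 is shown for its CCAAT boxes, which windows not shown, such as those of Slbp and Nasp, hold too. The windows are RefSeq sequences of GRCm38.p6, each from 250 bases before to 50 bases after an annotated gene start, read 5′ to 3′ on the gene's strand. Capitals mark an E2F core (TTTCGCG, and also TTTGGCG, and also TTTCCCG, on either strand), and in Hmgb2, which had no E2F core, the CCAAT box (CCAAT, either strand).
Hells, chr19:38930740-38931039, plus strand: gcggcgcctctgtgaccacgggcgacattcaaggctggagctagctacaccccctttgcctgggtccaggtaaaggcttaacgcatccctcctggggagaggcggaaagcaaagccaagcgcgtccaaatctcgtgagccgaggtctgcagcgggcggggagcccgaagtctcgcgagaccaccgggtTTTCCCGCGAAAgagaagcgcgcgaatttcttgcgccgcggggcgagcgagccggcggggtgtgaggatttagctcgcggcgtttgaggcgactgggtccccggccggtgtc
Uhrf1, start 2 of 2 annotated, chr17:56304063-56304362, plus strand: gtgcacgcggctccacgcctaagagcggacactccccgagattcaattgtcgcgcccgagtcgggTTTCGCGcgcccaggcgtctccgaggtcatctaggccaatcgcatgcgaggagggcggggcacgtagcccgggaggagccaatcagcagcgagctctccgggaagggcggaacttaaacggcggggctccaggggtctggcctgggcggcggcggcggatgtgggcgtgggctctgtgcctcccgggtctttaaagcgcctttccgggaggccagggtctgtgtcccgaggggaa
Dnmt1, start 3 of 3 annotated, chr9:20952574-20952873, minus strand: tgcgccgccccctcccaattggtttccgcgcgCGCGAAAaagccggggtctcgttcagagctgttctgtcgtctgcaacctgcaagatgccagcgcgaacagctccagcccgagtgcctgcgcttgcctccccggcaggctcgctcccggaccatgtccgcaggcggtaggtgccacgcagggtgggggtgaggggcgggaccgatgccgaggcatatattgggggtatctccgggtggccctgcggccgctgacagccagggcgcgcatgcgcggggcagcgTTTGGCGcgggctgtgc
Ezh2, chr6:47594981-47595280, minus strand: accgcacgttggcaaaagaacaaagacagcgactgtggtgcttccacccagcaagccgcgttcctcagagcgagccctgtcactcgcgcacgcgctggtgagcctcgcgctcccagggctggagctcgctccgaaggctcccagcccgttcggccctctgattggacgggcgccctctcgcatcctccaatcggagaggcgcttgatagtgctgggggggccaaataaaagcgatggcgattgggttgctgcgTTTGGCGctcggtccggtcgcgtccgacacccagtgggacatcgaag
Chaf1a, chr17:56040166-56040465, plus strand: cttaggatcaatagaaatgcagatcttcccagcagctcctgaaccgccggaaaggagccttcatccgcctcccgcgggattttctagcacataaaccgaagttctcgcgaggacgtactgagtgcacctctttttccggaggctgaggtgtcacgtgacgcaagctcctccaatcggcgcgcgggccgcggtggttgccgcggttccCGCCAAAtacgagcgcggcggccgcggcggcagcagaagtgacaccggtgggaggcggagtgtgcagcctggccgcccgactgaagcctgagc
Hmgb2, chr8:57511593-57511892, plus strand: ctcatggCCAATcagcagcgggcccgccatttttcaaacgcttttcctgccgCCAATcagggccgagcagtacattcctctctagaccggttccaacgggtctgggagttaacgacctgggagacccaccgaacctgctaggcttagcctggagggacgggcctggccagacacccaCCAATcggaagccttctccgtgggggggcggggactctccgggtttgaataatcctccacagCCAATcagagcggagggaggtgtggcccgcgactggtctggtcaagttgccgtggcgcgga

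An E2F core stood in a window of 5 of the 10 genes, against 5.58% of the 32851 windows of this length in the table and 6.38% of its 27025 genes. In Hells a TTTCCCG on the gene's strand and a TTTCGCG on the other strand overlapped, between 62 and 51 bases before the start. The core lay 43 to 37 bases before the start in Chaf1a, at bases 4 to 10 after it in Ezh2, and 185 to 179 bases before start 2 of Uhrf1. Dnmt1 had one 218 to 212 bases before its start 3 and one 34 to 40 bases after it. The CCAAT box was found in 7 of the 10 genes (41.1% of genes in the table). The windows with most matches were start 1 of Dnmt1 with 5 and Hmgb2 with 4. Slbp, Ezh2, start 3 of Dnmt1 and start 1 of Uhrf1 each had 3, so genes with an E2F core held them too. The CHR element TTTGAA, an element of genes expressed late in the cell cycle, was found in Hmgb2, Dnmt1 and Nasp, which makes 3 of 10 genes (20.2% of genes in the table). The windows of Trim28 and Chaf1b held none of these letters. A match describes the letters and not a bound factor, and the arrays do not show which start was used.

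**Figure D1:**
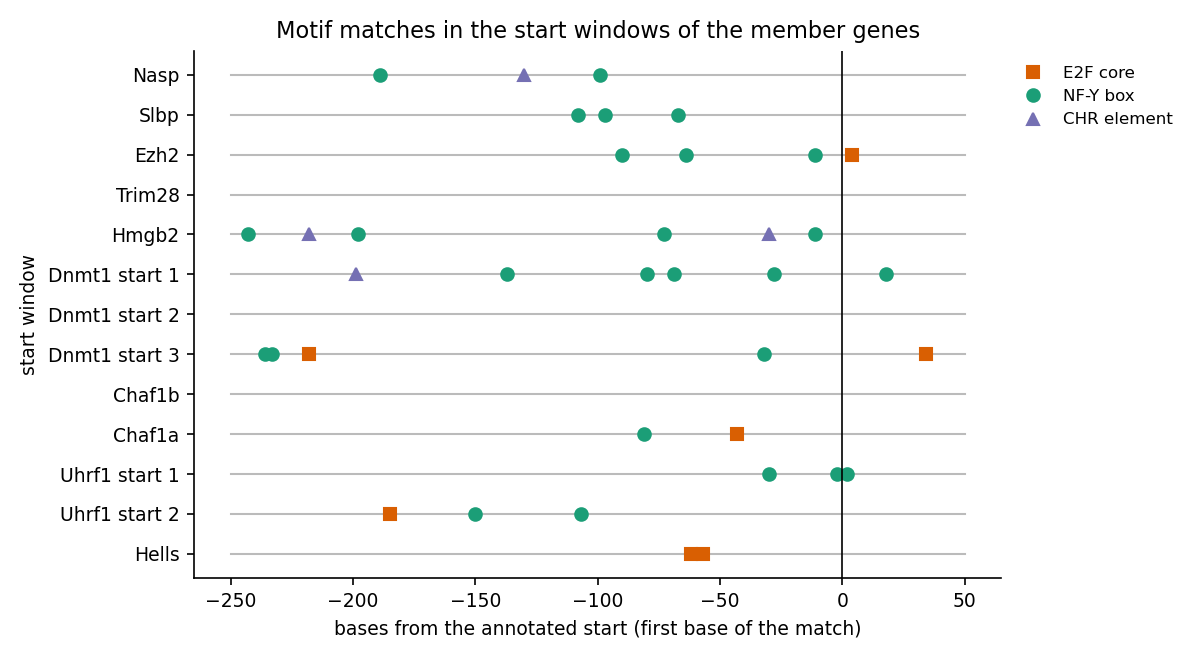
Positions of motif matches in the 13 start windows of the 10 member genes, in bases from the annotated start. Each line is a window, squares are E2F cores, circles the NF-Y box, whose letters are given in the text as the CCAAT box, and triangles the CHR element. E2F cores appear in Hells, Uhrf1, Dnmt1, Ezh2 and Chaf1a, and the lines of Trim28 and Chaf1b are empty.

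The deposited value of a probe set is its MAS5 signal, a linear brightness in arbitrary units that every array shares, with the same trimmed mean of 250.2 on each. Changes were fitted as log2(signal + 13), PEPCK-TAg minus WT, with limma over the 7453 probe sets whose mean reached the 40th percentile, near a signal of 48.1. Benjamini-Hochberg adjusted p under 0.05 was the threshold. On this scale the change of a dim gene is understated. Alb, the albumin gene of hepatocytes, had signals of 13339 and 12446 in PEPCK-TAg and 16723 and 14430 in WT, and the highest signal of 3 bile duct markers was 15.9. The ratio of 3′ to 5′ control signal, a sign of RNA quality, was 3.36 and 2.95 for Gapdh in PEPCK-TAg and 3.67 and 3.80 in WT, and 5.06 and 4.79 for actin in PEPCK-TAg and 4.87 and 4.06 in WT. Pck1, whose promoter drives the transgene, had signals of 1605 and 566 in PEPCK-TAg and 2372 and 2308 in WT, a log2 change of -1.28 that did not pass the threshold (limma, adjusted p = 0.121). One array decided this value, which was -2.02 and passed without PEPCK-TAg replicate 1 (limma, adjusted p = 0.000979) and was -0.54 without PEPCK-TAg replicate 2 (adjusted p = 0.218).

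Dnmt1, Uhrf1, Ezh2, Slbp and Hmgb2 were higher in PEPCK-TAg liver, by 1.13 to 2.91 on the log2 scale, and no member was lower. These were 5 of 9 member probe sets tested, beside 6.4% of all tested probe sets called higher and 3.07% called lower. With arrays centred on their medians, which put the median change of all tested probe sets at -0.12, those totals were 419 higher and 397 lower, against 477 and 229 as deposited. The other 4 tested members, Trim28, Chaf1a, Chaf1b and Nasp, did not pass, although both PEPCK-TAg arrays lay above both WT arrays for each of them. The PEPCK-TAg arrays thus lay above the WT arrays without overlap in 9 of 9 tested members, where 30.2% of all tested probe sets did. At an unadjusted p under 0.05 (limma) 9 tested members were higher and 0 lower, beside 15.5% higher and 11% lower of all tested probe sets.

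Hells and a second probe set of Dnmt1 fell below the filter. Among the 9 probe sets above it, Uhrf1, Chaf1a, Nasp and Hmgb2 had mean WT signals under 48.1 and were admitted through their PEPCK-TAg arrays. Counts over the tested members therefore describe these probe sets and are no evidence about the set. Without any filter 6 of the 11 member probe sets were called higher, Hells being the sixth, beside 2.71% of all 12422 probe sets. In that fit the median log2 change was 1.76 over the 11 members and 0.01 over all probe sets.

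**Figure D2:**
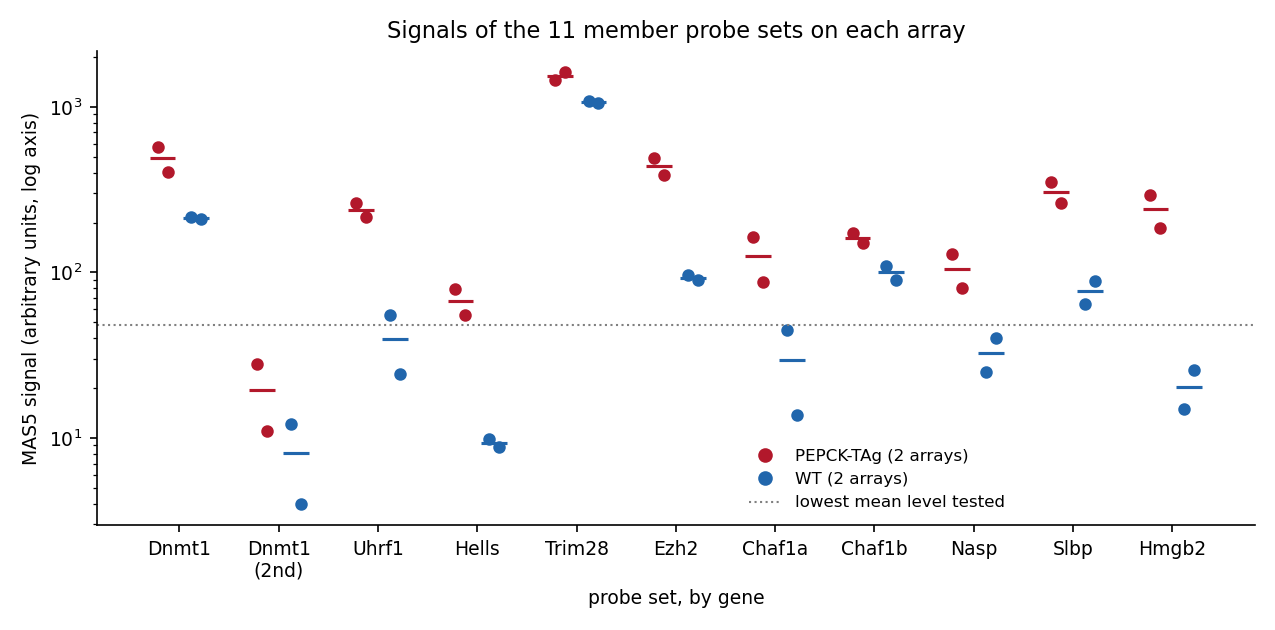
MAS5 signal (log axis, arbitrary units) of each member probe set on each array, with PEPCK-TAg points left of WT points and bars at the group means. The dotted line is the lowest mean level tested, a signal of 48.1. The groups overlap only in the second Dnmt1 probe set, and the WT points of Hells and Hmgb2 lie well below the line.

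The products of Dnmt1, Uhrf1 and Hells serve the copying of DNA methylation. Dnmt1 had signals of 570 and 405 in PEPCK-TAg and 216 and 210 in WT. The lower PEPCK-TAg array was still near 2 times the WT level, and the WT arrays were nearly equal. Its mean signal was 488 ± 117 (SD, n = 2) in PEPCK-TAg and 213 ± 4.24 (SD, n = 2) in WT, a ratio of 2.29. The log2 change was 1.13 ± 0.21 (SE; limma, adjusted p = 0.0219), and 4.94% of tested probe sets changed upward by more. The call was not kept without PEPCK-TAg replicate 1 (log2 change 0.89, limma adjusted p = 0.0738), without WT replicate 1 (1.15, adjusted p = 0.0659) or without WT replicate 2 (1.11, adjusted p = 0.0624). The second Dnmt1 probe set was dim, with signals of 28 and 11 in PEPCK-TAg and 12.1 and 4 in WT. Its groups overlapped, and its change of 0.60 did not pass in the fit without a filter (limma, adjusted p = 0.409).

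Uhrf1, whose product guides Dnmt1 to half-methylated DNA, had signals of 261 and 217 in PEPCK-TAg and 55.4 and 24.3 in WT. The WT arrays differed more than 2-fold from each other, and both stayed far below the PEPCK-TAg arrays. Mean signals were 239 ± 31.2 in PEPCK-TAg and 39.9 ± 22.0 in WT (SD, n = 2 each). It rose by 2.31 ± 0.32 (SE) on the log2 scale (limma, adjusted p = 0.00904), more than that of Dnmt1, its partner. Only 1.17% of tested probe sets changed upward by more.

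Hells, also called Lsh, encodes a chromatin remodeller that DNA methylation of repeats depends on. Its signals were 79.1 and 55.3 in PEPCK-TAg and 9.9 and 8.8 in WT. The WT arrays agreed closely at a level where MAS5 signals are weak, and the PEPCK-TAg arrays were both above the filter level. The mean was 67.2 ± 16.8 in PEPCK-TAg and 9.35 ± 0.78 in WT (SD, n = 2 each). In the fit without a filter, added for the dim members after the data were seen, its log2 change was 1.83 ± 0.28 (SE; limma, adjusted p = 0.0355). No detection calls were used, so the WT signals of Hells cannot be told from background.

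Ezh2 and Trim28 act in gene silencing, and they differed widely in size of change. Ezh2, the histone H3 methyltransferase of Polycomb repressive complex 2, had signals of 493 and 386 in PEPCK-TAg and 96.0 and 89.5 in WT. Within each group the arrays were close together compared with the distance between the groups. It rose by 2.09 ± 0.19 (SE) in log2 (limma, adjusted p = 0.00218), the smallest adjusted p of the tested members. The ratio of mean signals was 4.74, from 439 ± 75.7 in PEPCK-TAg over 92.8 ± 4.60 in WT (SD, n = 2 each).

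Trim28, the corepressor that zinc finger proteins of the KRAB family recruit to silence retroelements, had signals of 1449 and 1616 in PEPCK-TAg and 1078 and 1062 in WT. It was well expressed in both groups and had the smallest change of the tested members. Its log2 change of 0.51, with a 95% interval of 0.16 to 0.87 that is not adjusted for the number of tests, did not pass (limma, adjusted p = 0.0826). A larger upward change was found in 15.8% of tested probe sets.

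Chaf1a, Chaf1b and Nasp are histone chaperones, and none of them passed the threshold. Chaf1a, the large subunit of chromatin assembly factor 1, had signals of 164 and 87.0 in PEPCK-TAg and 45.0 and 13.8 in WT. The groups did not overlap, but arrays differed within both groups, by more on the log2 scale than in any other member. Its log2 change of 1.76, with an unadjusted 95% interval of 0.66 to 2.85, did not pass (limma, adjusted p = 0.0625). It did pass without PEPCK-TAg replicate 2 (log2 change 2.17, limma adjusted p = 0.0377) and without WT replicate 1 (2.31, adjusted p = 0.0401).

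Chaf1b, the middle subunit of the same factor, had signals of 174 and 150 in PEPCK-TAg and 110 and 90.1 in WT. The groups were apart by less than in Chaf1a, and the arrays within a group were closer. The log2 change was 0.63 with an unadjusted 95% interval of 0.14 to 1.12 (limma, adjusted p = 0.110). The intervals of Chaf1a and Chaf1b overlap, and a difference between them was not tested.

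Nasp, a chaperone that holds a reserve of histones H3 and H4, had signals of 130 and 80.9 in PEPCK-TAg and 24.9 and 40.3 in WT. The lower PEPCK-TAg array was about 2 times the higher WT array. The log2 change was 1.37 with an unadjusted 95% interval of 0.57 to 2.16, just short of the threshold (limma, adjusted p = 0.0521).

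Slbp binds the stem-loop at the end of histone messages and is needed for histone production during DNA synthesis. Its signals were 353 and 262 in PEPCK-TAg and 64.4 and 89.0 in WT, means of 308 ± 64.7 and 76.7 ± 17.4 (SD, n = 2 each). Both PEPCK-TAg arrays were nearly 3 times the higher WT array or more. Slbp rose by 1.84 ± 0.23 (SE) in log2 (limma, adjusted p = 0.00716), and 2.05% of tested probe sets changed upward by more.

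Hmgb2 encodes a high mobility group protein that bends DNA and is abundant in dividing and blood-forming cells. Its signals were 294 and 186 in PEPCK-TAg and 14.9 and 25.7 in WT. This was the largest change among the tested members, and the WT arrays lay below the filter level. Mean signals were 240.2 ± 76.7 in PEPCK-TAg and 20.3 ± 7.64 in WT (SD, n = 2 each), with a log2 change of 2.91 ± 0.31 (SE; limma, adjusted p = 0.00382). Only 0.523% of tested probe sets changed upward by more. The suffix of its probe set marks a design with relaxed selection rules, and whether related sequences add to its signal was not tested.

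**Figure D3:**
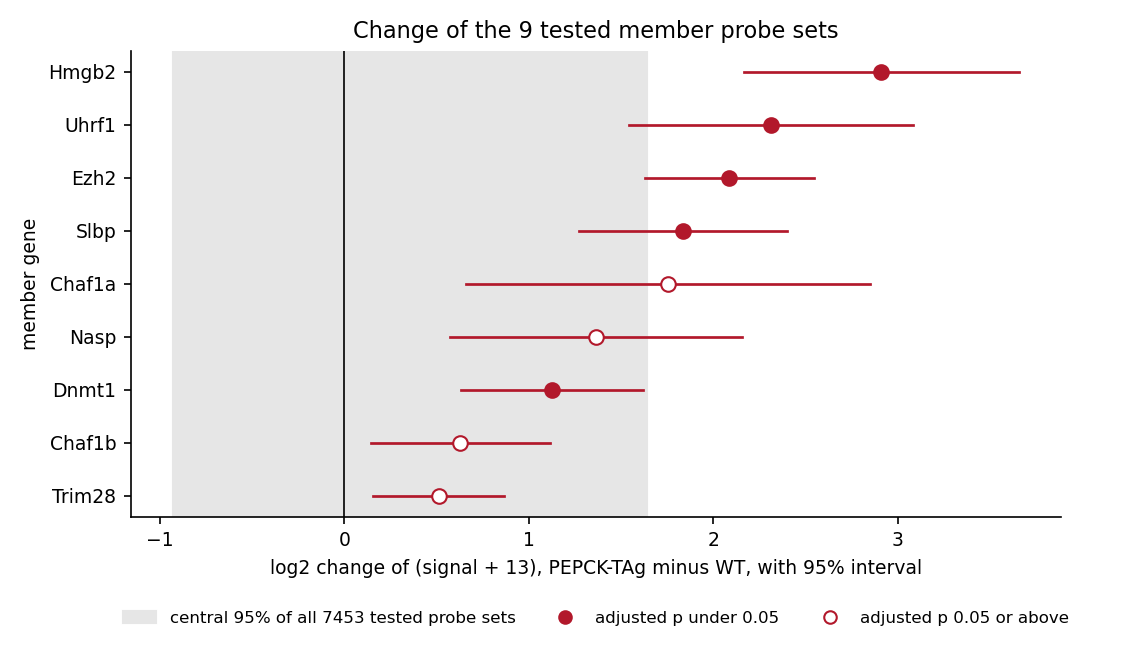
Log2 change of (signal + 13), PEPCK-TAg minus WT, of the 9 tested member probe sets with unadjusted 95% intervals from limma. Filled points passed an adjusted p of 0.05, and the grey band holds the central 95% of the changes of all 7453 tested probe sets, -0.93 to 1.64. Hmgb2, Uhrf1, Ezh2, Slbp and Chaf1a lie to the right of the band, and Chaf1a is not filled.

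The calls of Uhrf1, Ezh2, Slbp and Hmgb2 were kept in each of the 4 fits that left out 1 array. In those fits the log2 change ranged over 1.88 to 2.75 for Uhrf1, 1.92 to 2.26 for Ezh2, 1.63 to 2.04 for Slbp and 2.60 to 3.23 for Hmgb2. With 1 array left in a group, that array is assumed to vary like those of the other group.

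**Figure D4:**
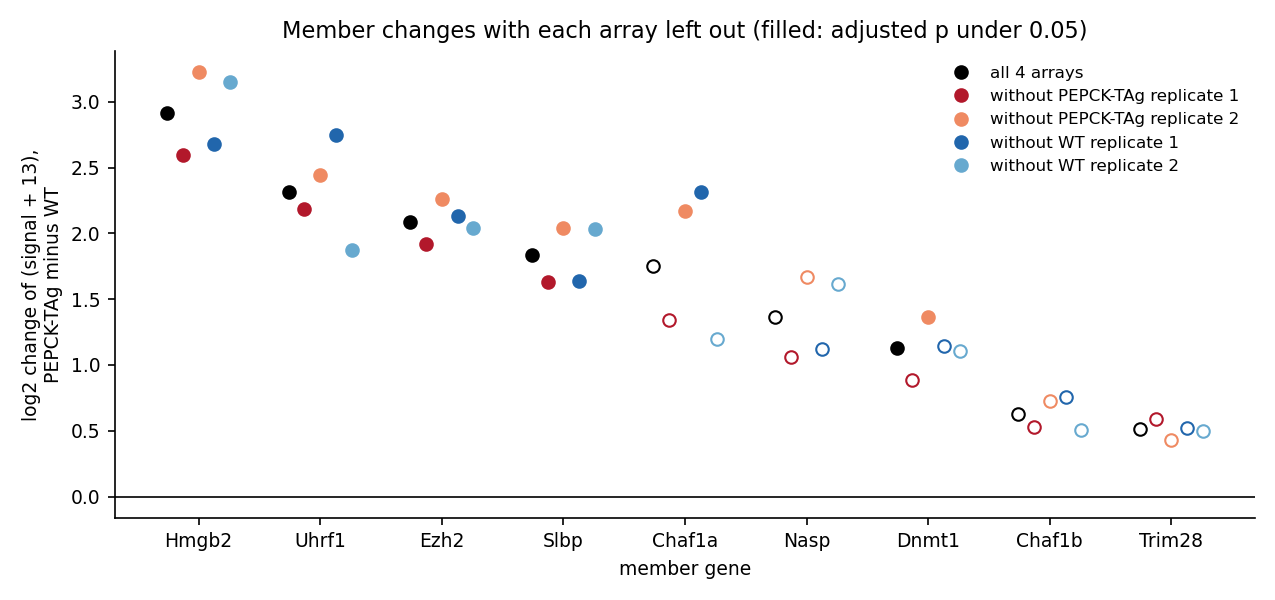
Log2 change of (signal + 13), PEPCK-TAg minus WT, of each tested member with all 4 arrays (black) and with each array left out (colours). Filled points passed an adjusted p of 0.05. Hmgb2, Uhrf1, Ezh2 and Slbp are filled throughout, Dnmt1 is filled with all arrays and without PEPCK-TAg replicate 2, and Chaf1b and Trim28 are never filled.

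The 2 PEPCK-TAg arrays were not alike for these genes. Replicate 1 had the higher signal in 8 of the 9 tested member probe sets, all but Trim28, where it was higher in 50.6% of all tested probe sets. It was also higher in both untested member probe sets. In WT, replicate 1 was higher in 8 of 11, and the matching share over all tested probe sets was not taken. Markers of dividing cells showed the same order, with 7 of 8 genes higher on PEPCK-TAg replicate 1. Their summed signal was 8831 and 6770 on PEPCK-TAg replicates 1 and 2 and 912 and 860 on WT replicates 1 and 2. Hepatocyte markers shared that order, with 5 of 6 higher on PEPCK-TAg replicate 1. Macrophage markers showed the opposite order, with 1 of 12 higher on PEPCK-TAg replicate 1 and summed signals of 13037 and 17318 in PEPCK-TAg and 3838 and 7044 in WT. Also higher there were 2 of 8 lymphocyte, 1 of 6 stellate cell and 0 of 6 endothelial markers. The same held for 0 of 5 red blood cell precursor and 0 of 3 bile duct markers. What sets the order was not tested. Pck1 was higher on PEPCK-TAg replicate 1, with the signals given above.

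All 8 dividing-cell markers passed as higher in PEPCK-TAg, beside 6.83% of the 5650 genes tested. Their median log2 change was 3.38, above the change of every tested member. Mki67, Top2a and Cdk1 had mean WT signals of 7.25, 5.75 and 12.1, under the filter level, and were admitted through their PEPCK-TAg arrays. The count therefore describes these genes and is no evidence about the list. Mki67, a marker of dividing cells, had signals of 672 and 431 in PEPCK-TAg and 5.8 and 8.7 in WT. A second Mki67 probe set did not share this, with 70.1 and 75.1 in PEPCK-TAg and 99.1 and 81.9 in WT. Pcna, the replication clamp to which Dnmt1 and Chaf1a bind, had signals of 2517 and 1751 in PEPCK-TAg and 382 and 380 in WT, with a log2 change of 2.42 (limma, adjusted p = 0.00185). Top2a, which untangles chromosomes before division, had 297 and 166 in PEPCK-TAg and 6.1 and 5.4 in WT. In total liver RNA, more cells that express a gene and more RNA per cell cannot be told apart.

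Other cell types bear on genes such as Hmgb2 and Uhrf1 that blood-forming cells also use. Of 12 macrophage markers 6 were higher and 0 lower in PEPCK-TAg, with a median log2 change of 1.33. Of the 5650 genes tested 6.83% were higher and 3.01% lower, and these shares stand beside each list below too. Of 8 lymphocyte markers on the array 4 were tested and 0 passed, with summed signals of 434 and 651 in PEPCK-TAg and 507 and 511 in WT. That sum joins opposite moves. Ptprc, which is not limited to lymphocytes, had 138 and 316 in PEPCK-TAg and 49.0 and 107 in WT. Cd79a had 64.2 and 86.4 in PEPCK-TAg and 118 and 99.0 in WT. Ms4a1 had 96.8 and 121 in PEPCK-TAg and 184 and 177 in WT, while its second probe set, under the filter, lay higher in PEPCK-TAg. The groups of Cd4 overlapped. Of 5 red blood cell precursor genes 0 passed, with sums of 1041 and 1329 in PEPCK-TAg and 1282 and 2762 in WT. This sum joins opposite moves too. Alas2 lay below WT, with 91.0 and 157 in PEPCK-TAg and 250 and 1073 in WT. Epor lay above WT, with 77.6 and 86.9 in PEPCK-TAg and 25.3 and 71.3 in WT. The groups of Klf1, Hba-a1 and Slc4a1 overlapped. Endothelial markers gave 0 of 6 passing and stellate cell markers 1 of 3 tested, Col3a1. Of the 6 stellate cell markers on the array, 5 had both PEPCK-TAg arrays above both WT arrays and 0 had both below. Of all tested probe sets 30.2% lay above. Among those 5, Acta2, Des and Pdgfrb were under the filter and not tested, so that share does not cover them. Col1a2 overlapped in its brightest probe set (log2 change -0.26), and its dimmer one lay above WT (0.63; limma, adjusted p = 0.103). Hepatocyte markers gave 0 of 6 passing, with a median log2 change of -0.40 and summed signals of 49674 and 45194 in PEPCK-TAg and 67187 and 57405 in WT. In 5 of these 6 both PEPCK-TAg arrays lay below both WT arrays, a share that was not taken over all tested probe sets. Both PEPCK-TAg arrays lay above both WT arrays in 8 of the 12 macrophage markers and below in 0, where 30.2% of all tested probe sets lay above. These counts take each gene by its brightest probe set. A dimmer tested Csf1r probe set lay below WT, with 52.7 and 28.6 in PEPCK-TAg and 97.9 and 76.1 in WT. Its log2 change was -0.93 (limma, adjusted p = 0.131). The groups of a dimmer tested C1qb probe set overlapped (0.21). No marker was listed at a signal of 0. The part of macrophages or hepatocytes in the member changes was not tested.

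Beyond the members, 105 symbols of DNA methylation and chromatin were listed, and 64 had a probe set, of which 55 genes were tested, each by its brightest probe set. Of these 11 were higher in PEPCK-TAg and 0 lower, beside 6.83% and 3.01% of the 5650 genes tested. The median log2 change was 0.29, against 0.01 over all genes tested. At an unadjusted p under 0.05 (limma) there were 20 higher and 1 lower, beside 16.6% higher and 11.3% lower of all genes tested. The lower one was Mbd1, named after its value was seen, with 137 and 108 in PEPCK-TAg and 171 and 190 in WT. The list was written with earlier results of these data known.

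Among histone chaperones and assembly genes 5 of 15 rose. Hat1, which acetylates new histone H4 before it is deposited, had signals of 1060 and 865 in PEPCK-TAg and 214 and 269 in WT. Its log2 change was 1.94 ± 0.19 (SE; limma, adjusted p = 0.00288), and its second probe set gave 2.02. Both Hat1 probe sets carry suffixes of shared or relaxed design. Rbbp7, which binds histone H4 in several complexes and has Rbbp4, a subunit of chromatin assembly factor 1, as its close relative, had 3149 and 3045 in PEPCK-TAg and 1649 and 1568 in WT (log2 change 0.94 ± 0.14; limma, adjusted p = 0.0106). Rbbp4 itself had overlapping groups, with 542 and 303 in PEPCK-TAg and 461 and 285 in WT (limma, adjusted p = 0.813). Anp32b (1.09), Nap1l1 (1.10) and Anp32e (0.98) were the other log2 rises in this list.

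The Asf1 chaperones pass histones H3 and H4 to chromatin assembly factor 1. Asf1b, the form tied to dividing cells, had signals of 104 and 98.6 in PEPCK-TAg and 14.6 and 6.9 in WT, under the filter. In the fit without a filter its log2 change was 2.29 ± 0.30 (SE; limma, adjusted p = 0.0253). Asf1a had 555 and 586 in PEPCK-TAg and 487 and 446 in WT and did not pass (limma, adjusted p = 0.308).

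Among DNA methylation genes Dnmt3a was the 1 of 6 that rose. It encodes a methyltransferase that sets new methylation marks, and had signals of 108 and 153 in PEPCK-TAg and 40.9 and 41.5 in WT. The log2 change was 1.39 ± 0.26 (SE; limma, adjusted p = 0.0231), admitted through its PEPCK-TAg arrays. Dnmt3a, which is not a member, was lower on PEPCK-TAg replicate 1, as Trim28 alone was among the members. A second Dnmt3a probe set, under the filter, did not share the rise. It had 9.4 and 4.1 in PEPCK-TAg and 1.6 and 10.2 in WT, a log2 change of 0.09 in the fit without a filter. Of the Polycomb genes 0 of 8 passed, including the Ezh2 partners Eed and Suz12. Eed had 340 and 279 in PEPCK-TAg and 229 and 204 in WT (limma, adjusted p = 0.153), and Suz12 had 264 and 174 in PEPCK-TAg and 159 and 153 in WT (adjusted p = 0.289). These groups did not overlap, and the log2 changes were 0.49 for Eed and 0.43 for Suz12, where that of Ezh2 was 2.09. With 1 array left out they ranged over 0.35 to 0.62 for Eed and 0.15 to 0.72 for Suz12, the lowest without PEPCK-TAg replicate 1 and the highest without PEPCK-TAg replicate 2.

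Among heterochromatin genes and partners of Trim28 0 of 4 passed. Setdb1, the histone H3 methyltransferase that Trim28 recruits, had signals of 609 and 591 in PEPCK-TAg and 441 and 493 in WT (limma, adjusted p = 0.216). Cbx5, a heterochromatin protein that binds Trim28, had overlapping groups, with 279 and 169 in PEPCK-TAg and 224 and 146 in WT (limma, adjusted p = 0.665). Cbx1, of the same family, was below the filter, with 37.8 and 26.1 in PEPCK-TAg and 32.8 and 18.5 in WT.

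Of 8 histone deacetylase genes and their cofactors 0 passed, and of 9 remodellers Smarcc1 (log2 change 1.17) and Chd4 (0.63) rose. The suffix of the Chd4 probe set marks a shared design, and whether related sequences add to its signal was not tested. Hmgb3, a relative of Hmgb2, had signals of 1274 and 1153 in PEPCK-TAg and 660 and 515 in WT (log2 change 1.04 ± 0.18; limma, adjusted p = 0.0188). Variant histones gave 2 rises of 3. H2ax, which is phosphorylated at DNA breaks, had 733 and 632 in PEPCK-TAg and 163 and 255 in WT (log2 change 1.68 ± 0.24; limma, adjusted p = 0.00972), and H2az1, a variant found near gene starts, had 1782 and 1524 in PEPCK-TAg and 710 and 910 in WT (1.02 ± 0.18; adjusted p = 0.0202).

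**Figure D5:**
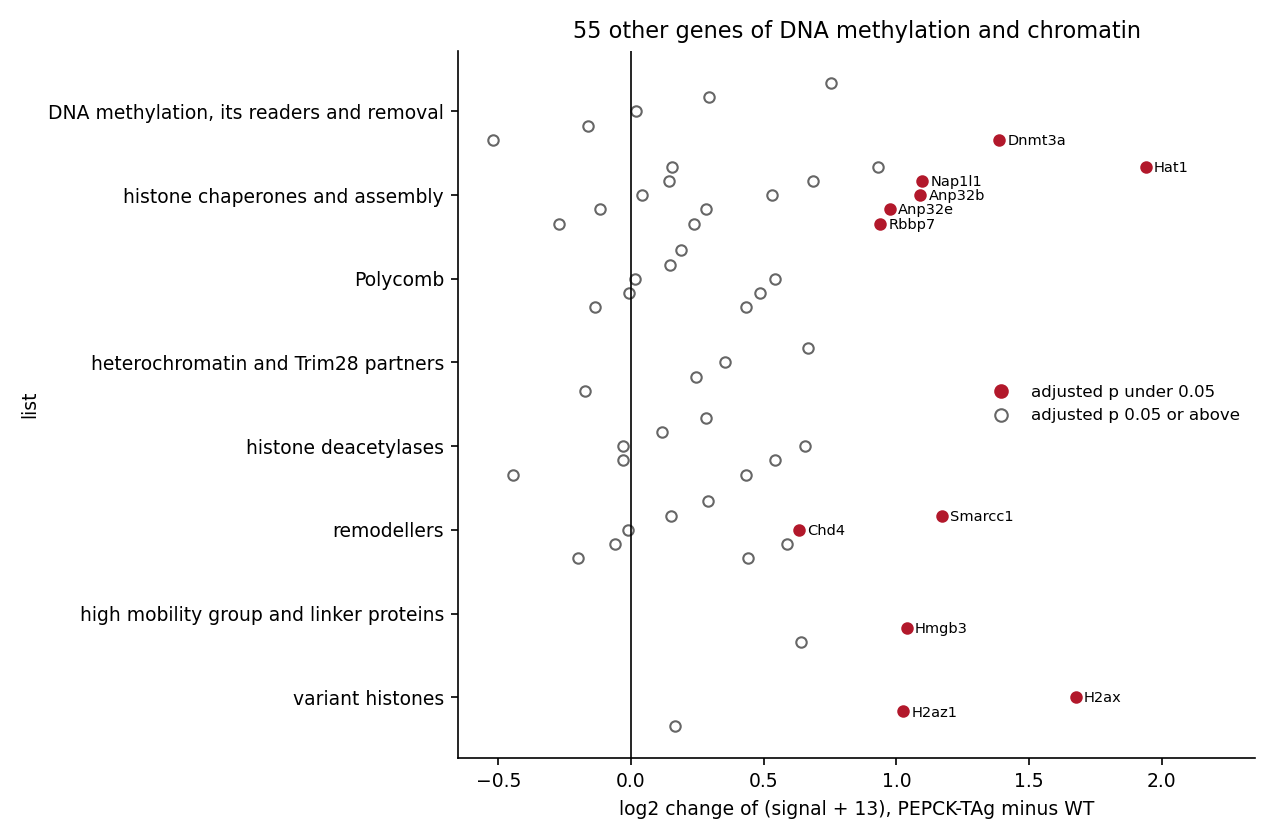
Log2 change of (signal + 13), PEPCK-TAg minus WT, of 55 tested genes of DNA methylation and chromatin outside the members, grouped by list. Filled points passed an adjusted p of 0.05 and are named. The 11 named genes stand in 5 of the lists, and the Polycomb, heterochromatin and histone deacetylase lists have none.

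Of the 11 rises, 4 were called in every fit that left out 1 array, those of Hat1, Anp32b, H2ax and Rbbp7. The count was 5 without PEPCK-TAg replicate 1 and 6 without WT replicate 2. By limma, without PEPCK-TAg replicate 1 the adjusted p was 0.0554 for Nap1l1, 0.0537 for Hmgb3, 0.0621 for H2az1, 0.0741 for Smarcc1, 0.0816 for Anp32e and 0.106 for Chd4. Without PEPCK-TAg replicate 2 it was 0.136 for Dnmt3a, 0.0504 for Smarcc1, 0.0510 for Anp32e and 0.189 for Chd4. Without WT replicate 1 it was 0.0664 for H2az1, 0.0609 for Dnmt3a and 0.0851 for Chd4. Without WT replicate 2 it was 0.0529 for Hmgb3, 0.0539 for Smarcc1, 0.0523 for Dnmt3a, 0.0693 for Anp32e and 0.104 for Chd4. With all arrays but no filter, which raises the number of probe sets tested, Smarcc1 (limma, adjusted p = 0.0604), Dnmt3a (0.0626) and Chd4 (0.0680) were not called. Chd4 was also not called with median centring (log2 change 0.51; limma, adjusted p = 0.0703) or without the eBayes trend (0.63; adjusted p = 0.0905).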

How the data were processed

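Per the submitters' processing notes the authors deposited MAS5 signals, which are linear intensities, 1 for each probe set on each array. The sources used here do not give the MAS5 version, scaling target or detection calls. The deposited intensity had a trimmed mean of 250.2 on each array (2% left out at each end) and was used without further normalization. Per the file headers, the arrays shared chip lot and fluidics station, and each had its own module and scan time, so no batch could be tested.

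Of 12488 probe sets 66 were controls. Values were analysed as log2(signal + 13) with limma 3.58.1 in R 4.3.3 (lmFit, eBayes with trend, two-sided) over 7453 probe sets at or above the 40th percentile, with 2 residual and 4.61 prior degrees of freedom and Benjamini-Hochberg adjustment. An exact permutation test of 2 against 2 arrays cannot go below p = 0.333. The fit was tested on simulated data. Symbols came from the platform annotation, and all 11 member probe sets matched RefSeq by Entrez identifier. The members, lists, motifs and tests were chosen with earlier results of these data known. Genes outside the members were named if past the threshold, if listed as partners of a member (Dnmt3b and Hmgb1 were not analysed here), or as markers. Mbd1, Set, Hdac2, Kmt5a, Hmgn1 and Cenpa fall outside this rule and were named after their values were seen. Alternatives covered offset, filter, normalization, trend, the replicate number as a block, and each array left out.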

Additional observations from a re-analysis of the deposited data

How the results depend on the processing

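The member count of 5 was 3 with the filter at the 60th percentile, where 4 member probe sets were tested, 6 without a filter and without the eBayes trend, and 4 to 6 with 1 array left out. It was 5 with offsets of 1 and 50, quantile normalization, median centring and cyclic loess. No member was lower under any alternative. The median change of the tested members was 1.14 with an offset of 50, and 1.34 to 2.04 with 1 array left out. Left-out arrays moved Dnmt1 over 0.89 to 1.37 and Chaf1a over 1.20 to 2.31. Nasp passed without the trend (log2 change 1.37, limma adjusted p = 0.0483). Higher probe sets numbered 294 to 401 with 1 array left out, and lower ones 94 to 147, against 105 without a filter, 397 with median centring and 117 without the trend. The cause of these moves was not tested, apart from the filters, which change how many probe sets are tested. Among other named genes, Alb had 0.12 with cyclic loess, against -0.27 as deposited, and with 1 array left out Rbbp4 ranged over -0.25 to 0.56 and Cbx5 over -0.10 to 0.59, below 0 without PEPCK-TAg replicate 1 and without WT replicate 2. None of these was called. Smarcc1, Dnmt3a and Chd4 lost their calls without the filter, and Chd4 also with median centring and without the trend.

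The labels give both groups replicate numbers 1 and 2 and do not say that a number marks a shared litter or day. With the replicate block, 7 member probe sets were higher, Chaf1a (1.76, limma adjusted p = 0.00686) and Nasp (1.37, adjusted p = 0.0371) among them, with 17 other chromatin genes higher. Over all tested probe sets 696 were then higher and 444 lower, against 477 and 229 without the block, and Pck1 passed as lower (-1.28, limma adjusted p = 0.0279). Deviations of same-numbered arrays correlated with r = 0.18 across probe sets, which are not independent. The other chromatin genes numbered 5 to 8 with 1 array left out. The 2 arrays per group, and the lack of detection calls for dim WT signals such as those of Hells and Hmgb2, limit the precision.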

Other observations

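Several chromatin genes outside the members missed the threshold narrowly with groups that did not overlap, and are named here after their values were seen. Both PEPCK-TAg arrays lay above both WT arrays in 30.2% of all tested probe sets. Set, a histone chaperone and inhibitor of protein phosphatase 2A, had signals of 705 and 622 in PEPCK-TAg and 383 and 431 in WT (log2 change 0.69; limma, adjusted p = 0.0518). A dimmer tested probe set of Set changed by 0.41 (limma, adjusted p = 0.221). Hdac2, a histone deacetylase, had 377 and 352 in PEPCK-TAg and 235 and 218 in WT (0.65; adjusted p = 0.0571). Kmt5a, which adds the single methyl mark of histone H4 at lysine 20, had 405 and 476 in PEPCK-TAg and 266 and 278 in WT (0.67; adjusted p = 0.0586). Hmgn1, of the high mobility group list, had 4625 and 4040 in PEPCK-TAg and 3089 and 2478 in WT (0.64; adjusted p = 0.0594). Cenpa, the histone H3 variant of centromeres, had 345 and 211 in PEPCK-TAg and 142 and 129 in WT (0.93; adjusted p = 0.0697).

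Probe sets of one gene did not always move together. The second probe set of Nap1l1 had 57.4 and 93.8 in PEPCK-TAg and 64.4 and 56.1 in WT, a log2 change of 0.25 where the brighter one had 1.10. That of Anp32e had 81.7 and 67.6 in PEPCK-TAg and 71.1 and 54.4 in WT, a change of 0.21 where the brighter one had 0.98. For Cbx5 the dimmer probe set had the larger change, 0.79, with 106 and 78.4 in PEPCK-TAg and 40 and 55.3 in WT, and did not pass either (limma, adjusted p = 0.136).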
